A study of Mus musculus with 4 samples.

Results

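The 4 RNA sequencing libraries examined here were made from microglia cultured from the brains of newborn male CD1 mice, and were compared by the replicate number in their labels. Both libraries of biological replicate 1 were set against both of biological replicate 2, which takes in 4 of the 4 samples of the study. Each replicate number holds 1 vehicle library (DMSO, the solvent) and 1 library of cells given 1 µM EGCG (epigallocatechin gallate, a flavanol of green tea) for 24 h, so treatment is balanced between the sides. All cells were grown from dissected cortex as mixed glia under GM-CSF, freed of the astrocyte layer by trypsin, and kept in serum-free medium with IL-34, TGFβ2, GM-CSF and cholesterol, and no genetic change was made in any group. The comparison describes how far the cultures differed in state and in cell mixture whatever the treatment. There was 1 culture on each side, so culture, preparation, library and sequencing batch cannot be told apart, and the p-values below measure the spread between libraries of the same replicate number and not that between cultures. In bulk RNA, fewer cells of a type and less RNA per cell cannot be told apart either.

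Microglia are the resident macrophages of the brain. Their survival depends on the CSF1 receptor, which binds CSF1 and IL-34, and TGFβ keeps up the genes that set them apart from other macrophages, such as the transcription factor Sall1. GM-CSF acts through another receptor, made of the subunits Csf2ra and Csf2rb, and is known to drive proliferation and to shift macrophages away from the resting state. Stimulated microglia secrete cytokines such as interleukin 1β, and those near damaged tissue take on a disease-associated state with lysosomal and lipid genes and osteopontin (Spp1).

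Total counts were 33805071 to 36307930 in 3 libraries and 54970300 in the EGCG library of replicate 2, and 98.0% to 98.1% of counts on annotated genes were on protein-coding genes. Values per library are counts per 1000000 (CPM) after TMM scaling, given in the order vehicle and EGCG of replicate 1, then vehicle and EGCG of replicate 2. A floor of 3 counts, which covers counting error only, corresponds to 0.0544 to 0.0936 CPM. The label of microglia could be checked on marker genes. The calcium-binding protein gene Aif1, which encodes IBA1, was at 68.1, 96.7, 215 and 180 CPM. The transmembrane protein gene Tmem119 was at 35.1, 26.7, 11.2 and 11.8 CPM and the purinergic receptor gene P2ry12 at 15.9, 18.3, 24.1 and 24.1 CPM, whereas the lectin gene Siglech had at most 3 counts in any library. Y-linked transcripts were present and Xist had at most 2 counts in each library. The EGCG library of replicate 1 stood apart in stromal transcripts. Summed over 18 fibroblast markers, left after Fn1 and Postn were set aside because all libraries held them, it had 11.8 CPM against 592 CPM in its own vehicle library and 206 and 230 CPM in replicate 2. Residual ribosomal RNA also differed. Gm42418, a locus that overlaps ribosomal RNA, took 0.041% and 0.027% of counts in replicate 1 and 0.245% and 0.260% in replicate 2. The median log2 difference between the replicates ran from 0.17 in the shortest of 5 equal groups of genes by annotated length to -0.10 in the longest. The part of these features in the results below was not tested, unless a value without a library is given.

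Replicate 1 and replicate 2 differed in 56.7% of the genes tested. These were the 13811 protein-coding genes whose counts in all libraries together reached 10, and 7824 of them passed an adjusted p of 0.1 in edgeR's quasi-likelihood test with replicate number as the only term. Of all genes tested, 27.6% were called higher in replicate 1 (3805 genes) and 29.1% higher in replicate 2 (4019 genes). This balance depended on the scaling, with 4378 higher in replicate 1 and 3443 in replicate 2 under upper-quartile factors, and 3237 and 4987 under total counts. Beyond a 2-fold difference the sides were uneven, with 1284 genes (9.3%) higher in replicate 1 and 702 (5.08%) higher in replicate 2. Within a replicate, EGCG and vehicle differed by more than 2-fold in 971 genes in replicate 1 and in 617 in replicate 2, a description with no test. Between the replicates this held for 2797 genes in the vehicle pair and 2535 in the EGCG pair. The first principal component of the log2 CPM, with 70.7% of the variance, separated the replicate numbers, and the second, with 22.7%, separated the vehicle library of replicate 1 from its EGCG library.

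**Figure D1:**
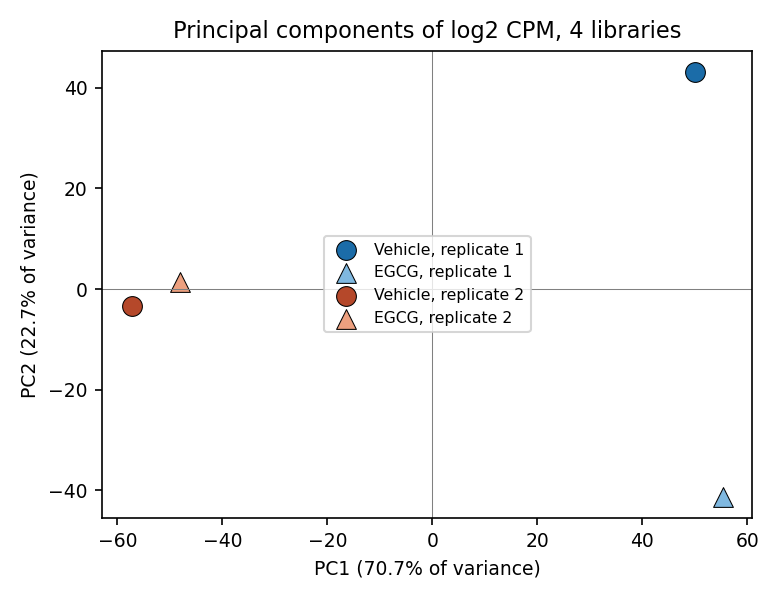
Scores of the 4 libraries on the first (x axis) and second (y axis) principal components of log2 CPM over the 13811 genes tested; circles are vehicle, triangles EGCG, blue replicate 1 and red replicate 2. The replicates lie at opposite ends of the first component, and only the libraries of replicate 1 lie apart on the second, at 43.2 and -41.2.

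The receptors through which the culture factors act differed between the replicates in opposite directions. Csf1r, the receptor for CSF1 and IL-34, was at 1195, 1264, 2373 and 2403 CPM, a log2 difference (replicate 1 minus replicate 2, here and below) of -0.96 with a standard error (SE) of 0.08 and adjusted p = 9.1e-05. Both libraries of replicate 1 lay below both of replicate 2, as they did for Csf3r, the receptor for G-CSF (98.3, 110, 364 and 349 CPM, log2 difference -1.78). Csf2ra (chromosome 19 of GRCm38, 61224402 to 61228418), the GM-CSF receptor subunit that gives specificity, was higher in replicate 1 at 568, 542, 293 and 306 CPM and had a log2 difference of 0.89 (SE 0.06, adjusted p = 4.2e-05). The shared signalling subunit Csf2rb was at 1312, 1261, 1068 and 1085 CPM and had a log2 difference of 0.26, but it matches Csf2rb2 at 95.1% identity over 3108 bases, so reads may be split between them. Csf1, the ligand, was itself higher in replicate 1 (265, 256, 127 and 135 CPM, log2 difference 0.99).

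Among 25 CSF receptor and myeloid transcription factor genes, 12 were higher in replicate 1 and 10 in replicate 2, with a median log2 difference of 0.06 against 0.003 over all genes. Without the vehicle library of replicate 2 the first number fell to 6. The 12 and 10 were 48.0% and 40.0% of the list, against 27.6% and 29.1% of all genes tested. Bhlhe40 and Bhlhe41, related repressors of the basic helix-loop-helix family, were both higher in replicate 1, by log2 differences of 2.09 and 1.85. Bhlhe40 was at 267, 270, 53.5 and 71.9 CPM and Bhlhe41 at 279, 294, 78.7 and 79.9 CPM. The leucine zipper factor Cebpa was higher in replicate 1 as well (287, 285, 150 and 140 CPM), while its relative Cebpd was lower (25.5, 26.5, 72.6 and 67.3 CPM). Sall1 (chromosome 8, 89027235 to 89044162), the microglial identity factor, was lower in replicate 1 at 12.7, 10.9, 45.1 and 40.0 CPM and had a log2 difference of -1.85 (SE 0.10, adjusted p = 1.9e-05). For none of these factors did the ranges of the replicates overlap, which also held for 76.5% of all genes tested.

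Genes known as targets of GM-CSF or of alternative activation stood higher in replicate 1, in 16 of 24 tested members, with 2 higher in replicate 2 and a median log2 difference of 0.53. The count was 10 without the vehicle library of replicate 2, and the median 0.86 without the vehicle library of replicate 1. Mmp8 (chromosome 9, 7558456 to 7568485), a collagenase best known from neutrophils, was at 360, 321, 41.5 and 38.0 CPM and had a log2 difference of 3.10 (SE 0.08, adjusted p = 3.1e-06). Mmp12, the macrophage elastase, was at 14544, 14655, 4427 and 5277 CPM (log2 difference 1.59). The eosinophil-type ribonuclease Ear2 had 70, 102, 1 and 1 counts, a ratio of 122 with an exact 95% interval of 33.2 to 1010 for counting error, and 4 genes share near-identical sequence with it (here and below, at least 90% over at least 200 bases). Socs3, which damps cytokine receptor signalling, went the other way at 25.8, 17.4, 85.7 and 72.9 CPM (log2 difference -1.87), as did the IL-3 receptor subunit Il3ra (-0.32).

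**Figure D2:**
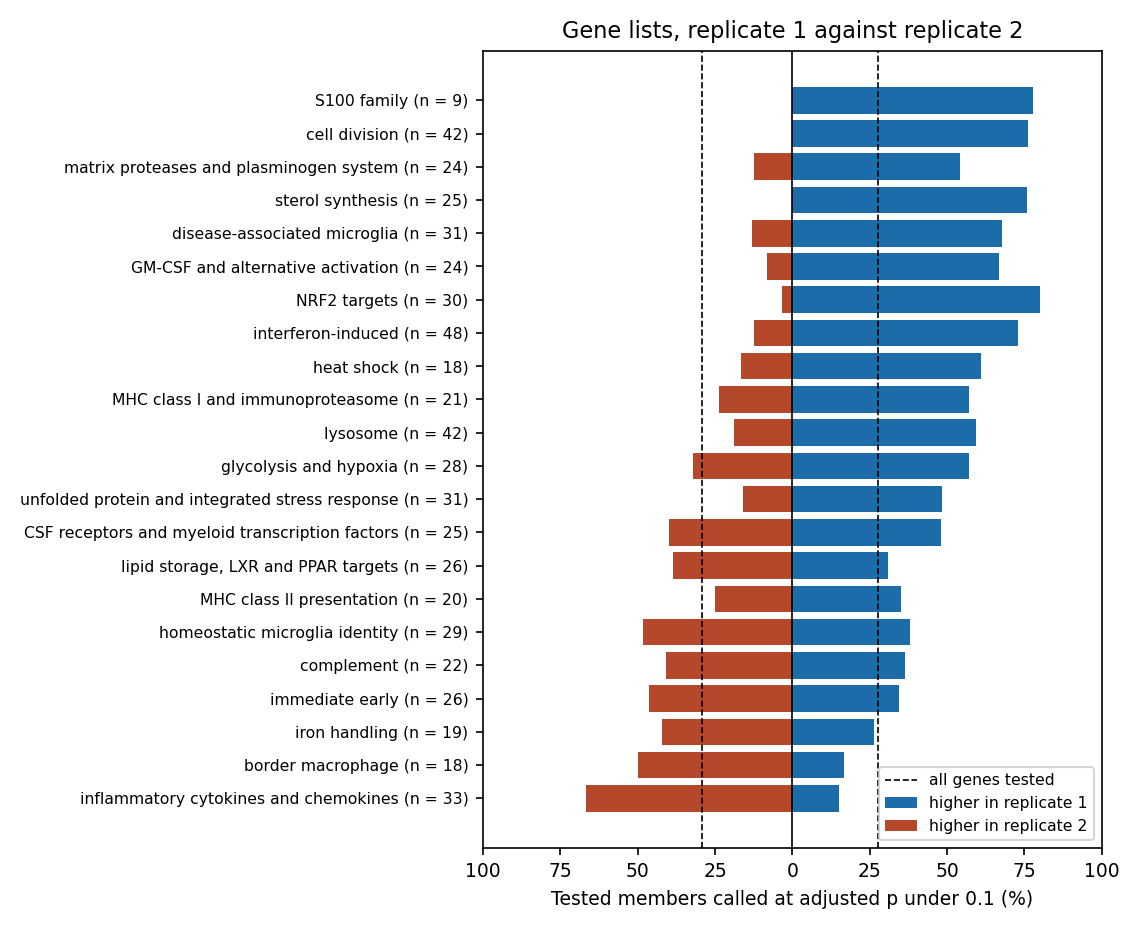
Share of the tested members of 22 gene lists called at an adjusted p under 0.1, in percent, drawn to the right for members higher in replicate 1 and to the left for those higher in replicate 2; dashed lines mark the shares among all genes tested, 27.6% and 29.1%. Lists are ordered by their median log2 difference, from the S100 family at the top (1.91) to the inflammatory cytokines and chemokines at the bottom (-0.73).

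The genes that define resting microglia differed in both directions. Among all genes tested, 27.6% were called higher in replicate 1 and 29.1% in replicate 2. Of 29 tested members of a homeostatic list, 11 (37.9%) were higher in replicate 1 and 14 (48.3%) in replicate 2. Their median log2 difference was -0.05, but -0.31 with treatment as a term and in limma-voom, and -0.24 and -0.16 without the vehicle library of replicate 1 and of replicate 2. The Fc receptor-like gene Fcrls was at 94.4, 99.7, 732 and 629 CPM and had a log2 difference of -2.81 (SE 0.09, adjusted p = 4.2e-06). Cx3cr1, the receptor for the neuronal chemokine fractalkine, was at 267, 274, 605 and 637 CPM (log2 difference -1.20), and the transcription factor Mef2c had a log2 difference of -1.17. In the opposite direction, Olfml3, a secreted glycoprotein gene, was at 147, 134, 23.1 and 22.4 CPM and had a log2 difference of 2.63 (SE 0.07, adjusted p = 3.1e-06). Itgam, which encodes CD11b (404, 417, 169 and 168 CPM, log2 difference 1.28), and the sialic acid lectin gene Cd33 (log2 difference 1.10) were also higher in replicate 1, as was Tmem119 (1.42), so that markers used to call microglia gave opposite orders of the cultures. The TGFβ receptor gene Tgfbr1 was higher in replicate 1 (425, 432, 241 and 255 CPM, log2 difference 0.79).

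Disease-associated genes were mostly higher in replicate 1. Of 31 tested members, 21 were higher there and 4 in replicate 2, with a median log2 difference of 0.60, and the counts without any 1 library were 20 to 25 and 1 to 4. Spp1 (chromosome 5, 104435118 to 104441050), which encodes the secreted phosphoprotein osteopontin, was at 33458, 29787, 7919 and 10418 CPM and had a log2 difference of 1.79 (SE 0.18, adjusted p = 0.00027). Gpnmb, a glycoprotein of lysosomal stress, was at 13513, 14289, 5443 and 5956 CPM (log2 difference 1.29). The receptor kinase gene Axl, used in the uptake of dying cells, was at 463, 487, 184 and 180 CPM (1.38). The pattern recognition receptor gene Clec7a, annotated as a polymorphic pseudogene and therefore outside the genes tested, was at 2212, 2074, 843 and 1065 CPM, and in the fit of all gene classes its log2 difference was 1.13 (SE 0.12, adjusted p = 0.00023). The members higher in replicate 2 were the protease inhibitor Cst7 (148, 149, 351 and 393 CPM, log2 difference -1.33), the growth factor Igf1 (-0.46), the lipid carrier Apoe (12410, 14278, 20867 and 18765 CPM, -0.57) and the phosphate and ATP exporter Ank (-0.19).

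Genes of macrophages at the borders of the brain went the other way, with 9 of 18 tested members higher in replicate 2, 3 higher in replicate 1 and a median log2 difference of -0.48. The endocytic adaptor gene Dab2 was at 285, 235, 915 and 871 CPM (log2 difference -1.78), and the scavenger receptor gene Stab1 at 174, 182, 362 and 364 CPM (-1.03). The chemokine gene Pf4 (451, 520, 142 and 130 CPM, 1.84) and the lectin gene Siglec1 (313, 320, 133 and 133 CPM, 1.25) were among the 3 exceptions. Markers of this class were not uniform in level. The hyaluronan receptor gene Lyve1 was scarce at 0.164 to 0.593 CPM and the haptoglobin receptor gene Cd163 had no more than 4 counts in a library, whereas Pf4 was well expressed in both replicates. Adgre1, which encodes F4/80, the usual surface marker of mouse macrophages, was at 618, 683, 2301 and 2165 CPM and had a log2 difference of -1.78 (SE 0.08, adjusted p = 1.3e-05).

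**Figure D3:**
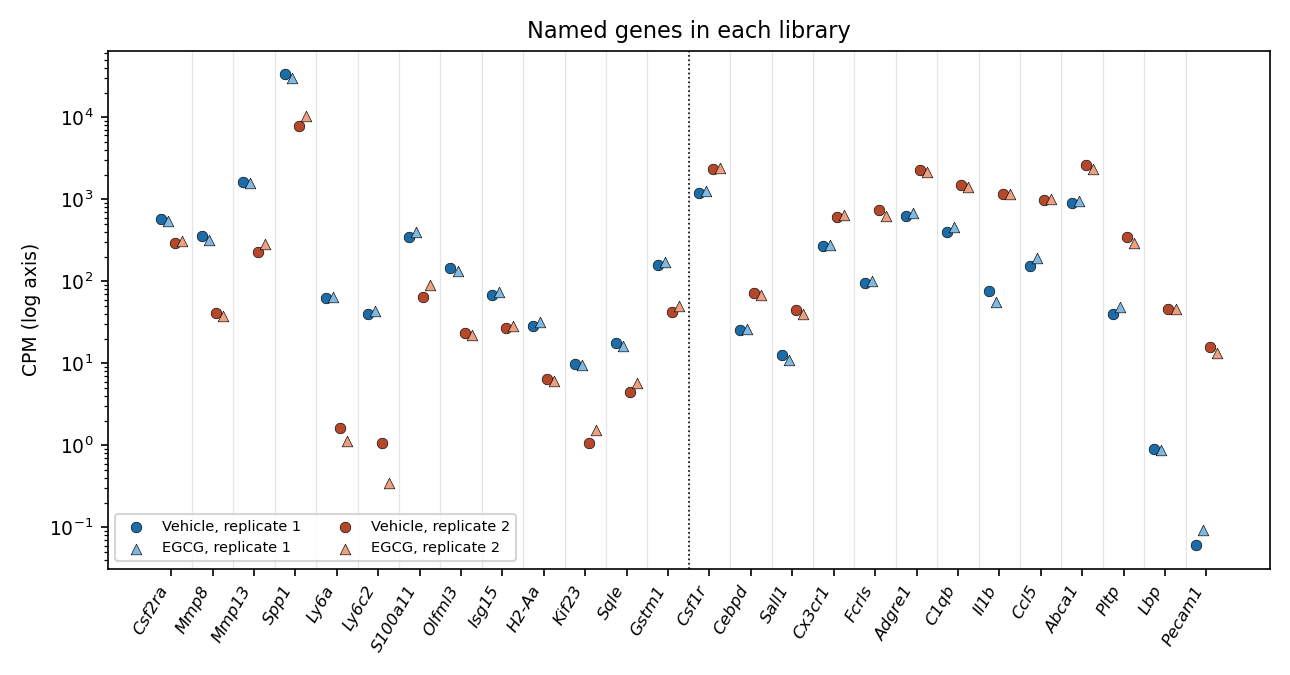
Level of 26 genes named in the text in each library, in CPM on a log axis; circles are vehicle, triangles EGCG, blue replicate 1 and red replicate 2. The 13 genes left of the dotted line were higher in replicate 1 and the 13 to the right higher in replicate 2. In none of the 26 do the replicates overlap, which also held for 76.5% of all genes tested.

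Several of the genes past the threshold with the largest log2 differences were at a few CPM or less in 1 culture. Ly6c2 (chromosome 15, 75108158 to 75111970), which encodes a surface antigen of inflammatory monocytes, was at 40.2, 43.4, 1.06 and 0.344 CPM and had a log2 difference of 6.01 (SE 0.31, adjusted p = 1.7e-05). Its neighbours Ly6c1 (32.6, 32.4, 0.436 and 1.07 CPM, log2 difference 5.34) and Ly6a, which encodes SCA-1 (62.4, 63.7, 1.64 and 1.14 CPM, 5.54), showed the same order. Ly6c1 and Ly6c2 are near-identical (98.3% over 595 bases), so reads may pass between them, although both were high in the same libraries. Other genes of this kind were the betaine and GABA transporter gene Slc6a12 (104, 89.3, 1.86 and 2.34 CPM, log2 difference 5.50), the carbonic anhydrase gene Car2 (17.8, 19.5, 0.737 and 0.634 CPM, 4.77), the SNARE protein gene Snap25 (17.2, 16.4, 0.518 and 0.653 CPM, 4.81) and the retinol-binding protein gene Rbp4 (4.15). Chil3, a chitinase-like gene of alternatively activated macrophages, had 26 and 113 counts in replicate 1 and none in replicate 2, at least 65.6-fold higher when 3 counts over both libraries of replicate 2 are taken as the floor.

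In the other direction, Pecam1 (chromosome 11, 106654217 to 106750628), which encodes the adhesion molecule CD31 of endothelium and of some leukocytes, had 2, 3, 580 and 741 counts. The ratio of the pooled counts was 187, with an exact 95% interval of 79.8 to 576 for counting error, and its fitted log2 difference was -7.51 (SE 0.24, adjusted p = 4.2e-06). Other endothelial markers did not follow it, since Cldn5, Emcn and Sox17 were at 0 in every library and Flt1 was higher in replicate 1 (175, 175, 53.3 and 64.9 CPM). Lbp (chromosome 2, 158306493 to 158332852), which encodes the lipopolysaccharide-binding protein, was at 0.914, 0.874, 45.3 and 45.4 CPM (log2 difference -5.66, SE 0.09, adjusted p = 1.3e-06). The dicarboxylate transporter gene Slc13a3 was at 0.427, 0.999, 54.0 and 50.5 CPM (-6.20), the opioid precursor gene Pdyn at 0.183, 0.0312, 10.5 and 10.04 CPM (-6.53), the organic anion transporter gene Slco2b1 at 3.57, 3.34, 47.7 and 48.8 CPM (-3.80) and the lectin receptor gene Clec4a1 at 29.7, 37.7, 323 and 326 CPM (-3.27). Spib, a relative of the myeloid factor PU.1, had 2, 0, 80 and 121 counts, a ratio of 71.0 with an exact 95% interval of 19.4 to 590.

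Inflammatory cytokines and chemokines had the lowest median of the 22 lists in the plot of shares. Of 33 tested members, 22 were higher in replicate 2 and 5 in replicate 1, with a median log2 difference of -0.73 (-0.77 in the vehicle pair and -0.75 in the EGCG pair). Without the vehicle library of replicate 2 the 5 became 3. Il1b (chromosome 2, 129364570 to 129371139), which encodes interleukin 1β, was at 76.8, 56.3, 1164 and 1159 CPM and had a log2 difference of -4.12 (SE 0.14, adjusted p = 5.5e-06). Il6 had 22, 5, 269 and 409 counts, a log2 difference of -4.14 (SE 0.44). The chemokine Ccl5, which attracts T cells and monocytes, was at 154, 193, 994 and 996 CPM (-2.52), and Ccl12 was at 3.90, 4.53, 17.5 and 17.8 CPM (-2.07). Nfkbiz, a nuclear cofactor of NF-κB that takes part in the induction of Il6, was at 29.9, 27.8, 133 and 124 CPM (-2.16). Cytokine genes were not uniform, since Tnf was higher in replicate 1 (53.2, 66.0, 38.7 and 41.7 CPM, log2 difference 0.57), as were the chemokine Ccl9 (1964, 2013, 1014 and 1111 CPM, 0.90), the acute-phase gene Saa3 (0.37), Acod1, which makes itaconate (0.50), and Nos2, which makes nitric oxide (0.99). Immediate early genes were also divided, with 9 of 26 higher in replicate 1 and 12 in replicate 2, the latter 7 without either library of replicate 2. The 9 and 12 were 34.6% and 46.2% of the list, against 27.6% and 29.1% of all genes tested. Fos, a subunit of AP-1, was at 24.0, 23.8, 94.5 and 97.2 CPM (-2.004), while the zinc finger factor Egr2 was at 203, 225, 52.3 and 64.4 CPM (1.87).

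**Figure D4:**
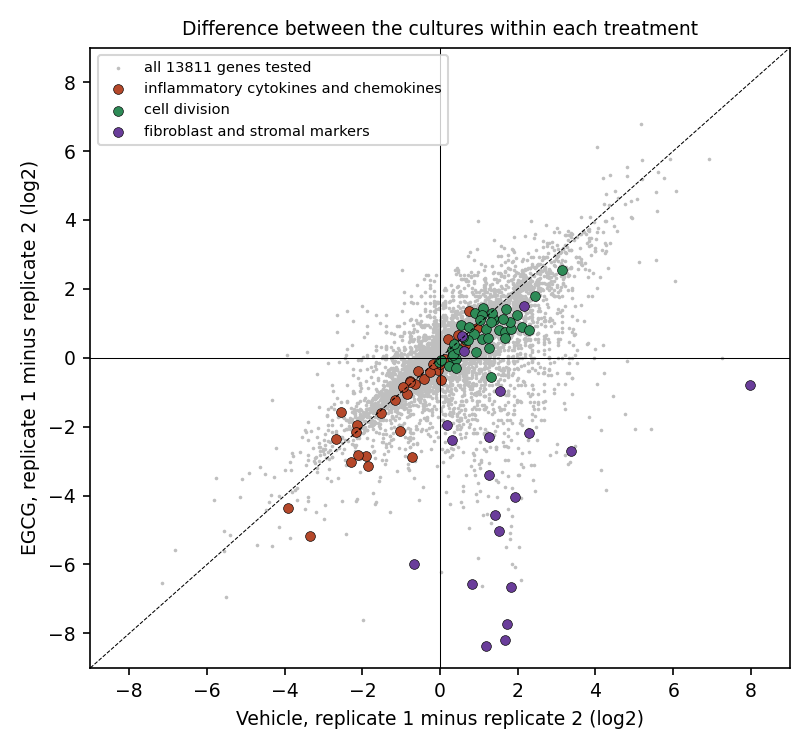
Log2 difference between replicate 1 and replicate 2 in vehicle (x axis) and in EGCG (y axis) for each gene tested, with inflammatory, cell division and stromal genes coloured and the line of equal differences dashed. Inflammatory genes lie mostly at lower left and cell division genes at upper right, while most stromal genes lie at lower right, positive in vehicle and negative in EGCG.

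Interferon-induced genes were higher in replicate 1 in 35 of 48 tested members, with 6 higher in replicate 2 and a median log2 difference of 0.44. The first count was 30 to 35 without any 1 library, and the second 2 to 6. The antiviral oligoadenylate synthetase gene Oas3 was at 98.9, 108, 34.05 and 33.1 CPM (log2 difference 1.63, SE 0.07, adjusted p = 8.4e-06), the ubiquitin-like modifier gene Isg15 at 67.7, 74.1, 27.3 and 28.2 CPM (1.35), and Usp18, whose product removes that modifier, at 74.2, 83.7, 21.9 and 25.2 CPM (1.74). The members higher in replicate 2 included the guanylate-binding protein genes Gbp7 (46.8, 49.0, 73.3 and 86.2 CPM, -0.74) and Gbp3 (23.5, 26.8, 28.7 and 34.1 CPM, -0.32) and the chemokine gene Cxcl10 (6.40, 10.3, 10.6 and 16.1 CPM, -0.68, where the EGCG library of replicate 1 and the vehicle library of replicate 2 nearly met). Interferons act through the interferon-stimulated response element (ISRE), searched here as GAAA, any 2 bases, then GAAA, on both strands in the 250 bases before RefSeq start sites of GRCm38.p6. It was found in 19 of 37 list members with a promoter sequence (51.4%), against 3.38% of the 10733 tested genes that had one. Of the 19 genes with a match 13 were called higher in replicate 1, and of the 18 without one 12 were. Promoters of genes that differed in opposite directions are shown with the matches in capitals; overlapping matches run together. Isg15 (chr4:156200819-156201068, minus strand), with 3 overlapping matches, and Oas3 (chr5:120777660-120777909, minus strand) were higher in replicate 1, while Cxcl10 (chr5:92348890-92349139, minus strand) and Gbp3 (chr3:142559794-142560043, plus strand, 2 overlapping matches) were higher in replicate 2.
Isg15: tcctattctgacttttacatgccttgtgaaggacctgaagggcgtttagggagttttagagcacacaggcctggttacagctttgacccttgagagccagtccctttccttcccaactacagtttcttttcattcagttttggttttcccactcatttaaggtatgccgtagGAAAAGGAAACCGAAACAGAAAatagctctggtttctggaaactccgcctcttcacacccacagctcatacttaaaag
Oas3: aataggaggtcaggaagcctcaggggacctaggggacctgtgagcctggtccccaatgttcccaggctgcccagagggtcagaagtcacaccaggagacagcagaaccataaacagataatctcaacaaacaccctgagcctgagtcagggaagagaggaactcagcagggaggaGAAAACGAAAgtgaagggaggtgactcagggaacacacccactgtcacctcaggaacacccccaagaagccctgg
Cxcl10: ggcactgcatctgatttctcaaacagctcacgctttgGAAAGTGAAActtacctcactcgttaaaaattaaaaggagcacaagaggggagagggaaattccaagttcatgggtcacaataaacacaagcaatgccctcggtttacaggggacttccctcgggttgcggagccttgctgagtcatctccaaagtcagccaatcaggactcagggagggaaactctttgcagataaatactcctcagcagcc
Gbp3: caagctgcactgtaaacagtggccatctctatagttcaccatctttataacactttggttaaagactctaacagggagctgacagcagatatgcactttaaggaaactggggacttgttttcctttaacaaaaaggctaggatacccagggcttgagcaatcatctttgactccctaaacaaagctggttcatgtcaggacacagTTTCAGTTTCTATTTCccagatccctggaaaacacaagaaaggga

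Genes of antigen presentation differed in both directions. The shares among all genes tested were 27.6% higher in replicate 1 and 29.1% higher in replicate 2. The class II list as a whole lay close to these shares, with a median log2 difference of -0.01 against 0.003 over all genes. The class II genes H2-Aa (28.2, 31.9, 6.41 and 6.11 CPM, log2 difference 2.26) and H2-Ab1 (24.4, 28.2, 5.92 and 6.80 CPM, 2.04), which encode the peptide-binding chains, and H2-DMa (52.0, 56.0, 16.8 and 19.3 CPM, 1.58), which helps to load them, were higher in replicate 1. H2-DMb1 had a difference of 2.81 with a near-identical copy, H2-DMb2 (95.7% over 1081 bases). The invariant chain gene Cd74 (452, 455, 598 and 672 CPM, -0.49) and the costimulatory gene Cd86 (80.6, 68.4, 137 and 145 CPM, -0.92) were higher in replicate 2, and over the class II list 7 of 20 tested members were higher in replicate 1 and 5 in replicate 2, the 5 being 3 without the EGCG library of replicate 2. In class I, B2m (3841, 4004, 2870 and 3029 CPM, 0.41), the light chain, and Tapbp, a peptide-loading chaperone (0.44), were higher in replicate 1, and 12 of 21 members were, with 5 higher in replicate 2. Without either library of replicate 2 the 12 became 7, and the 5 became 2 without its vehicle library. The median log2 difference of the class I list was 0.26, and 0.13 without the EGCG library of replicate 1. The nonclassical genes H2-T22 (8.56, 10.9, 35.8 and 35.3 CPM, -1.87) and H2-T23 (17.1, 25.2, 79.5 and 74.2 CPM, -1.86) were higher in replicate 2, but they share near-identical sequence with 21 and 53 other genes, so their counts are uncertain.

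Complement genes differed in both directions. All chains of C1q, which starts the classical pathway, were lower in replicate 1, with C1qa at 1443, 1688, 3155 and 2794 CPM (log2 difference -0.93), C1qb at 399, 461, 1502 and 1394 CPM (-1.75) and C1qc at 631, 704, 1846 and 1659 CPM (-1.39). The same order held for the convertase stabiliser Cfp (219, 238, 794 and 740 CPM, -1.75) and the C3a receptor C3ar1 (520, 586, 1492 and 1560 CPM, -1.46). Cfb, the protease of the alternative pathway, had 210, 191, 11 and 6 counts (4.99), and the integrin chain Itgb2, which pairs with CD11b in complement receptor 3, was at 1787, 1867, 959 and 1051 CPM (0.86). Over 22 tested members, 8 were higher in replicate 1 (36.4%) and 9 in replicate 2 (40.9%), against 27.6% and 29.1% of all genes tested.

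Cell division genes were higher in replicate 1 in 32 of 42 tested members and higher in replicate 2 in none, with a median log2 difference of 0.96. The number called fell to 16 without the vehicle library and to 21 without the EGCG library of replicate 2, and to 13 in DESeq2 with treatment as a term, while the median stayed between 0.77 and 1.03 in these fits. The kinesin gene Kif23, needed for cytokinesis, was at 9.81, 9.46, 1.06 and 1.56 CPM (log2 difference 2.85, SE 0.20, adjusted p = 5.1e-05), the proliferation antigen gene Mki67 at 20.2, 20.6, 7.61 and 9.53 CPM (1.24), and the spindle gene Tpx2 at 17.1, 16.2, 5.57 and 7.38 CPM (1.36). Of the genes of DNA synthesis, the helicase subunit Mcm3 (29.5, 31.1, 19.5 and 20.6 CPM, 0.60) and the sliding clamp Pcna (152, 169, 118 and 127 CPM, 0.39) were also higher in replicate 1. Many mitotic genes carry a cell cycle homology region (CHR), here TTTGAA on both strands. It was held by 9 of 35 members with a promoter sequence (25.7%) and by 13% of all tested genes with one. Of the 9 members with a match 7 were called higher in replicate 1, and of the 26 without one 20 were. The promoters of Top2a, a topoisomerase gene with a log2 difference of 1.14, and of Kif11, a spindle motor gene with one of 1.33, are shown with the matches in capitals (Top2a, chr11:99024190-99024439, minus strand; Kif11, chr19:37376132-37376381, plus strand).
Top2a: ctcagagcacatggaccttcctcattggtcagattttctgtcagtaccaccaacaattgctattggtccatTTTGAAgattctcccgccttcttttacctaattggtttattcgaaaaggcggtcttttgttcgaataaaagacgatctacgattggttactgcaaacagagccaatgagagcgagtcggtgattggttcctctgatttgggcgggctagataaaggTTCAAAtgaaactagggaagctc
Kif11: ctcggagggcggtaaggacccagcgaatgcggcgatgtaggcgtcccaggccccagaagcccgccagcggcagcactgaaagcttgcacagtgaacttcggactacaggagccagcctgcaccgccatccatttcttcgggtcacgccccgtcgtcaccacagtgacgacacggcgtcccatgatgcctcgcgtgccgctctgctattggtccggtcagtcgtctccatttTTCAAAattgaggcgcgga

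Sterol synthesis genes were higher in replicate 1 in 19 of 25 tested members and in replicate 2 in none, with a median log2 difference of 0.63. The sterol regulatory element, searched as ATCACC directly followed by CCAC on both strands, was in none of the 18 promoters on hand for the list and in 0.0373% of those of all tested genes. Along the pathway, the early enzyme Hmgcs1 was at 107, 110, 54.0 and 54.4 CPM (1.01), the monooxygenase Sqle at 17.9, 16.4, 4.47 and 5.82 CPM (1.73) and the last enzyme Dhcr7 at 56.4, 58.7, 28.6 and 28.0 CPM (1.02). Srebf2, the factor that switches these genes on, was at 94.3, 89.7, 65.3 and 64.1 CPM (0.51). Among known targets of the liver X receptors, which sterols activate, the cholesterol exporter Abca1 was lower in replicate 1 at 913, 950, 2592 and 2351 CPM (-1.41) as was the phospholipid transfer protein Pltp at 39.8, 48.7, 344 and 292 CPM (-2.84). Of all genes tested 27.6% were called higher in replicate 1 and 29.1% in replicate 2, and in a wider lipid list 30.8% and 38.5%. The wider list of lipid storage, LXR and PPAR genes had 8 of 26 members higher in replicate 1 (4 without either library of replicate 2) and 10 in replicate 2, since it also holds the fatty acid carriers Fabp3 (51.5, 62.6, 22.6 and 24.7 CPM, 1.27) and Cd36 (362, 450, 164 and 227 CPM, 1.05).

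Of 30 NRF2 targets tested, 24 were higher in replicate 1 and 1, the exporter Abcc4 (-0.26), was higher in replicate 2, with a median log2 difference of 0.50. NRF2 is the factor that induces antioxidant and detoxifying enzymes. The glutathione transferase Gstm1 was at 157, 172, 42.1 and 50.2 CPM (1.83) and Gsta3 at 9.14, 10.8, 1.06 and 1.18 CPM (3.15, SE 0.17, adjusted p = 1.9e-05). The NADPH-producing enzymes Pgd (664, 679, 334 and 318 CPM, 1.04) and Tkt (401, 417, 223 and 222 CPM, 0.88) belong to the same list, as does the peroxiredoxin Prdx1 (5031, 5753, 2338 and 2515 CPM, 1.15). The antioxidant response element, searched as TGACNNNGC on both strands, was held by 7 of 24 members with a promoter sequence (29.2%) and by 13.8% of all tested genes with one. Of the 7 members with a match 6 were called higher in replicate 1, and of the 17 without one 13 were. The element is shown in capitals for Gsta3 (chr1:21240335-21240584) and Prdx1 (chr4:116685349-116685598), both on the plus strand.
Gsta3: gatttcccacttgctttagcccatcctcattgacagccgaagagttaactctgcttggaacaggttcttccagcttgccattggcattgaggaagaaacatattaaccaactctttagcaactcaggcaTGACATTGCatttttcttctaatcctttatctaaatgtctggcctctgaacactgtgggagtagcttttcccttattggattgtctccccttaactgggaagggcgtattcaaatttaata
Prdx1: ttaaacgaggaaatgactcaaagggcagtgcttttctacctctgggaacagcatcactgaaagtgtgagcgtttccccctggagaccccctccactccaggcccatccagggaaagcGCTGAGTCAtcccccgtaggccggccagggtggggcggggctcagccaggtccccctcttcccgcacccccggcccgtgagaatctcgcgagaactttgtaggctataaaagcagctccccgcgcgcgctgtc

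Proteolysis genes differed both inside the cell and outside it. The lysosomal list had 25 of 42 members higher in replicate 1 and 8 in replicate 2. The cysteine proteases Ctsl (8931, 9178, 3497 and 3722 CPM, log2 difference 1.33), Ctss (7470, 7929, 4410 and 4412 CPM, 0.80) and Ctsk (23.3, 21.8, 3.30 and 5.06 CPM, 2.41) and the aspartic protease Ctsd (8496, 9277, 5442 and 5920 CPM, 0.65) were higher in replicate 1, whereas Ctsc, which activates granule proteases, was lower (433, 397, 962 and 904 CPM, -1.17). Outside the cell, 13 of 24 matrix protease and plasminogen genes were higher in replicate 1 and 3 in replicate 2, with a median log2 difference of 0.95. Without the vehicle library of replicate 1 the 3 became 8. The collagenase Mmp13 was at 1610, 1563, 228 and 286 CPM (2.62), coagulation factor F10 at 45.6, 52.3, 6.87 and 6.89 CPM (2.83) and the urokinase receptor Plaur at 441, 471, 188 and 213 CPM (1.18). The matrix glycoprotein Thbs1 was lower in replicate 1 (33.3, 18.6, 205 and 210 CPM, -2.997). Of 9 S100 genes tested, 7 were higher in replicate 1 and none in replicate 2, among them S100a6 (27.0, 25.5, 6.22 and 6.22 CPM, 2.08), S100a10 (88.2, 86.1, 27.5 and 30.4 CPM, 1.59) and S100a11 (345, 403, 63.7 and 90.8 CPM, 2.27, with 5 near-identical copies), which encode calcium-binding proteins.

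Energy, iron and stress genes differed in both directions. Of all genes tested, 27.6% were called higher in replicate 1 and 29.1% in replicate 2. In glycolysis and hypoxia, 16 of 28 members were higher in replicate 1 and 9 in replicate 2, and the former was 10 without the vehicle library of replicate 2. The platelet-type phosphofructokinase Pfkp was higher in replicate 1 (144, 128, 54.6 and 54.3 CPM, 1.32) and the liver type Pfkl in replicate 2 (53.4, 47.9, 91.8 and 87.0 CPM, -0.82), as was Hif1a, the oxygen-sensing factor (209, 185, 401 and 411 CPM, -1.04). For iron, the copper oxidase Heph was at 17.7, 19.2, 1.75 and 1.76 CPM (3.39) and its relative Cp at 34.1, 37.1, 80.1 and 86.8 CPM (-1.23), with 5 of 19 members higher in replicate 1 (3 without the EGCG library of replicate 2) and 8 in replicate 2. Heat shock genes were higher in replicate 1 in 11 of 18 members and in replicate 2 in 3, and unfolded protein and stress response genes in 15 and 5 of 31, the 15 falling to 9 and the 5 to 3 without the vehicle library of replicate 2. Summed over the heat shock list, the level was 3378, 3443, 3336 and 3485 CPM, with overlapping ranges. The constitutive chaperone Hspa8 (692, 693, 1099 and 1150 CPM, -0.70), which has 12 near-identical copies, and the endoplasmic reticulum protein Herpud1 (44.0, 49.1, 120 and 128 CPM, -1.42) were higher in replicate 2.

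The order of the replicates in most stromal markers differed between vehicle and EGCG. The collagen gene Col1a1 was at 121, 0.125, 36.7 and 37.0 CPM and Col3a1 at 135, 0.187, 59.7 and 79.3 CPM, with log2 differences of 0.72 (SE 1.32) and -0.05 (SE 1.31) that did not pass the test (adjusted p = 0.68 and 0.98). The smooth muscle actin gene Acta2 was at 10.8, 0.593, 2.43 and 5.78 CPM (adjusted p = 0.73). In all 3 the vehicle library of replicate 1 was highest and its EGCG library lowest, with both libraries of replicate 2 between. Without the vehicle library of replicate 1 they passed the test as lower in replicate 1 (-8.17 for Col1a1, -8.52 for Col3a1 and -2.82 for Acta2), and without its EGCG library they passed as higher (1.72, 0.95 and 1.34). Over 20 fibroblast markers, 3 were called higher in replicate 1 and none in replicate 2, and the 3 were Fn1 (2410, 1711, 543 and 605 CPM, 1.84) and Postn (253, 254, 171 and 165 CPM, 0.59), matrix proteins present in every library, and Eln, whose 1088 counts in the vehicle library of replicate 1 stood against 1, 3 and 5 in the others. Without the vehicle library of replicate 1, 16 of 19 were called higher in replicate 2, and without its EGCG library 15 of 20 were called higher in replicate 1. Without that library and without the EGCG library of replicate 1, the medians were -0.76 and -0.87 for inflammatory genes, 0.94 and 1.03 for cell division and 0.48 and 0.36 for interferon-induced genes.

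**Figure D5:**
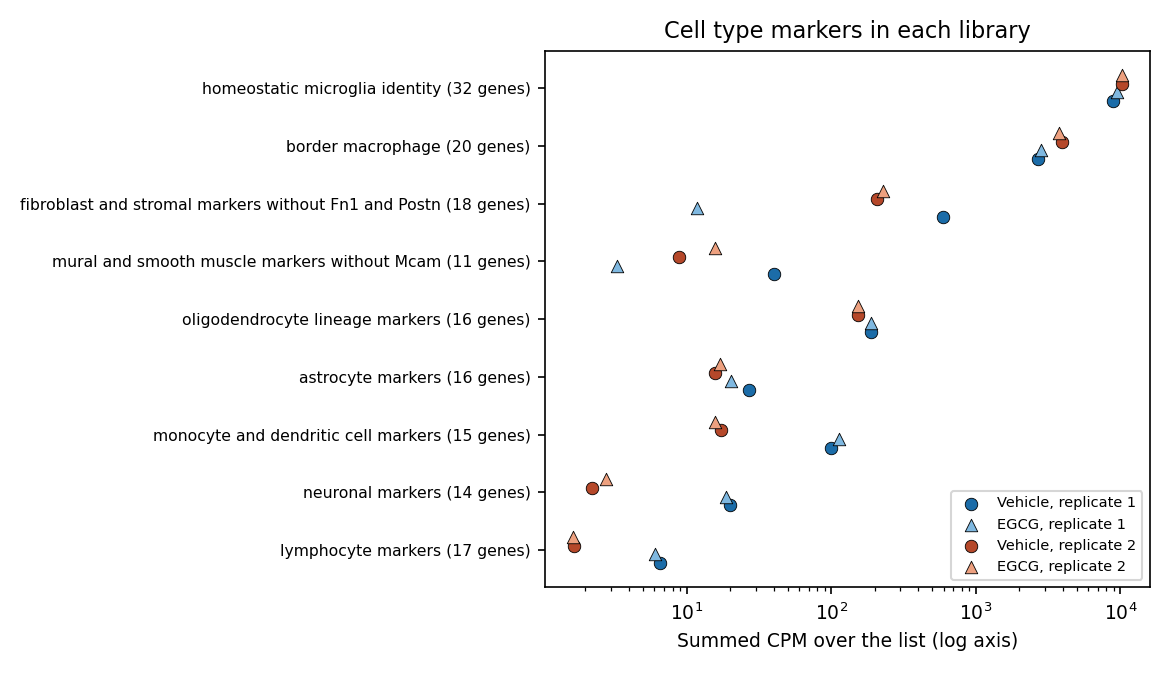
Summed CPM over 9 marker lists in each library, on a log axis; circles are vehicle, triangles EGCG, blue replicate 1 and red replicate 2. Homeostatic microglial genes sum to 8946 and 9409 CPM in replicate 1 and to 10202 and 10289 CPM in replicate 2. For stromal and mural markers the libraries of replicate 1 lie on both sides of those of replicate 2. Monocyte, neuronal and border macrophage markers are among the lists whose sums do not overlap between the replicates.

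Astrocyte markers summed to 26.8, 20.2, 15.7 and 17.1 CPM, with 4 of 13 tested members higher in replicate 1 and 1 in replicate 2, against 27.6% and 29.1% of all genes, and Gjb6 and Ntsr2 were at 0 in every library. These counts were 4 and 4 without the vehicle and 6 and 0 without the EGCG library of replicate 1, and 2 and 0 without the vehicle library of replicate 2. Monocyte and dendritic cell markers summed to 100 and 114 CPM in replicate 1 and to 17.2 and 15.6 CPM in replicate 2 (exact permutation test over 4 libraries, two-sided p = 0.3333, the smallest this design allows), and 7 of 11 tested members were higher in replicate 1, 4 without the vehicle library of replicate 2 or in DESeq2 with treatment as a term. Most of that sum was Ly6c2 and F10, whereas the defining monocyte receptor gene Ccr2 was at 3.41, 4.40, 2.43 and 2.25 CPM (log2 difference 0.74) and the dendritic cell genes Flt3 and Cd209a were at 0 throughout. Of 6 neutrophil markers tested, 4 were higher in replicate 1, among them Mmp8 and S100a8 (11.2, 12.8, 2.86 and 3.46 CPM, 1.91). The other 2, among them Csf3r, were higher in replicate 2, and S100a9, Ly6g, Elane and Retnlg were at 0 in every library. Lymphocyte markers summed to 1.63 to 6.52 CPM with 9 of 17 at 0 everywhere, and their sum in replicate 1 was mostly the receptor gene Klrb1c (5.97, 5.46, 0.164 and 0.0906 CPM). Of the 3 lymphocyte markers tested, 1 was higher in replicate 1 and 2 were higher in replicate 2. Of the other marker lists, 4 of 11 oligodendrocyte lineage members were higher in replicate 1 and 1 in replicate 2, 2 of 8 neuronal and 2 of 5 ependymal members were higher in replicate 1, and 2 of 7 endothelial members were higher in replicate 1 and 1 in replicate 2. Among mural markers 1 of 9 was higher in replicate 1, while 5 of 8 were without the EGCG library of replicate 1 and 3 of 7 were higher in replicate 2 without its vehicle library. Without the vehicle library of replicate 2 the oligodendrocyte 4 became 2 and the neuronal 2 became 1. Of the remaining markers, 10 of 13 mast cell and erythroid markers were at 0 everywhere. Mitochondrial transcripts summed to 7781 to 8038 CPM with overlapping ranges, and 2 of 13 were higher in replicate 1 (1 without either library of replicate 2) and 4 in replicate 2.

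A few counts can turn on how reads were placed. Rps18, a ribosomal protein gene, was at 226, 250, 12.2 and 11.4 CPM (log2 difference 4.34), but 12 other genes share near-identical sequence with it, and their summed counts were 5691, 6377, 14828 and 22478, in the opposite order. The elongation factor gene Eef1a1 (-0.28) has 18 such copies. Outside the protein-coding genes, Gm42418 was at 419, 292, 2421 and 2587 CPM and the ribosomal RNA gene CT010467.1 at 6.43, 6.18, 23.3 and 20.9 CPM, with log2 differences of -2.85 (SE 0.17) and -1.85 (SE 0.10) in the fit of all gene classes. The nuclear RNA Neat1 was higher in replicate 1 (923, 882, 563 and 499 CPM), with no overlap between the replicates, while Malat1 overlapped (566, 495, 510 and 366 CPM).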

How the data were processed

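Cultured mouse microglia were profiled by strand-specific, paired-end sequencing of poly-A RNA. The deposited values are unnormalised read counts per gene, which the authors obtained by trimming and filtering reads and aligning them to the mouse genome; the submitters' processing notes name HISAT2 and GRCm38.p6, and the counting program and annotation are not given in the sources used here. The tables of both replicate numbers were joined on Ensembl gene identifiers. Genes that were protein-coding in the annotation and had at least 10 counts over the 4 libraries were scaled by TMM and tested with edgeR 4.0.16 in R 4.3.3 (quasi-likelihood F test, replicate number as the only term, Benjamini-Hochberg adjusted p under 0.1). The fit was run on simulated data in which 200 of 13811 genes were raised by 1.5 on the log2 scale. It recovered 97.5% of them, with 18 false calls. The simulated libraries were drawn independently and few genes were changed, unlike in the real data, so this does not measure the error of the calls above. Near-identical sequences were found with BLAST 2.17.0. Alternatives were DESeq2 1.42.0, limma 3.58.1 (voom), a treatment term, other scaling factors and filters, all gene classes, a prior count of 0.5, and leaving out each library.

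Members and gene lists were chosen with earlier results of these data known. Genes were named as the 12 largest fold changes per direction (at least 10 CPM and no overlap), the 8 largest CPM differences, up to 4 members per direction and the 2 most abundant of each list, 5 genes per direction with at most 3 counts in each library of the other replicate, markers at 0, and sex-linked genes. Named after their values were seen were Aif1, CT010467.1, Ccr2, Cd163, Clec7a, Col1a1, Col3a1, Cxcl10, Gm42418, Il6, Kif11, Lyve1, Nos2, P2ry12, Prdx1, Siglech, Tgfbr1, Tmem119 and Top2a. Results for a few genes are not reported here.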

Additional observations from a re-analysis of the deposited data

Results flagged for a closer look

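Stromal and mural markers differed between the replicates in opposite directions in vehicle and in EGCG, and the difference between the treatments was not tested, since each pair holds 1 library a side. Over the fibroblast and stromal markers the median log2 difference (replicate 1 minus replicate 2) was 1.47 in the vehicle pair and -3.06 in the EGCG pair, and over the mural and smooth muscle markers it was 1.77 and -1.65. The collagen genes Col1a1 (1.72 in vehicle and -7.72 in EGCG) and Col3a1 (1.17 and -8.38), the smooth muscle actin gene Acta2 (2.12 and -3.18) and the elastin gene Eln (7.97 and -0.78) had the same signs. Cd163, with at most 4 counts in a library, was at 1.48 and -1.27.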

How the results depend on the processing

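The number of genes past the threshold was 7824, and 7382 with the treatment term, in which libraries are paired by treatment (replicate block). It was 4969 in DESeq2 with that replicate block, where 1 residual degree of freedom remains. The other scalings, filters and tools gave 6556 to 9146, and 5558 to 7618 genes passed when 1 library was left out, 5558 without the vehicle library of replicate 2. Genes also past a 2-fold difference numbered 1511 to 2159 with 1 library left out, against 1986, and list members past the threshold 355 to 487, against 470. With 1 library left out, the lone library of a replicate is assumed to vary like the pair. Of 136 called genes named in the text none changed direction under any alternative in which the gene was tested. A gene that fell below the count filter of an alternative had no value there. This held for Eln without the vehicle library of replicate 1, and its log2 difference in the EGCG pair was -0.78. Calls were lost without the vehicle library of replicate 2 for Abcc4, Acod1, Ank, Apoe, Ccr2, Csf2rb, Cxcl10, Eef1a1, Eln, Igf1, Il3ra and Tnf, without its EGCG library for Abcc4, Ank, Ccr2, Cxcl10, Eef1a1, Eln, Gbp3, Igf1, Nos2 and Saa3, without the vehicle library of replicate 1 for Abcc4, Cxcl10 and Nos2, and without its EGCG library for Ank. DESeq2 with the replicate block also lost Abcc4, Ank, Ccr2, Eln, Gbp3, Il3ra and Kif11.

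Medians of some marker lists changed sign. The fibroblast and stromal median was -0.67 with the replicate block, -1.23 in DESeq2 with it, -1.28 in limma-voom, -1.26 with a prior count of 0.5, and -4.13 to 1.23 with 1 library left out. The mural and smooth muscle median was -0.50 in DESeq2 with the replicate block, -0.31 in limma-voom, -0.44 with a prior count of 0.5, and -2.63 to 1.60 with 1 library left out. Without a filter on low counts the oligodendrocyte median was -0.016 and the lymphocyte median 0.48, and the immediate early median lay between -0.24 and 0.013 with 1 library left out. Among single genes, Acta2 was at -0.25 with the replicate block, -0.54 in DESeq2 with it, -0.66 in limma-voom and -2.82 to 1.34 with 1 library left out. Col1a1 was at -0.86, -3.19 and -3.10 in the same fits and at -8.17 to 1.72 with 1 library left out. Col3a1 was at 0.035 with upper-quartile factors and at -8.52 to 0.95 with 1 library left out. The cause was not tested. Libraries of 33805071 or more counts leave genes at a few counts with wide counting intervals.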
